A study of Zea mays with 4 samples.

Results

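Regions of maize genomic DNA bound by C3H23 and OBF4, and by neither of the other 2 factors of the series, were selected from the deposited peak lists and described. DAP-seq (DNA affinity purification sequencing) was carried out with 4 maize transcription factors. In this assay a tagged factor is translated in vitro and fixed to beads, a library of genomic DNA is incubated with them, and the retained fragments are sequenced. C3H23 (Zm00001d008323), OBF4 (Zm00001d012553), CPP2 (Zm00001d031008) and THX20 (Zm00001d017420) were each made as a Halo fusion in wheat germ extract and had 1 library each. The DNA was the same kind for all of them, taken from 14 DAG leaf of inbred B73. Binding was thus to purified DNA and not in a nucleus. The submitters' design places the factors downstream of ZmNAC128 and ZmNAC130, NAC regulators of the maize endosperm. With 1 library per factor, no difference below has a replicate check and no p-value is given. Intervals cover counting error of regions or peaks and nothing else.

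Summits of the 4 lists were sorted along each chromosome, and neighbours at most 200 bp apart were chained into regions. Of the 333903 regions formed, 2185 (0.654%) held at least 1 C3H23 and 1 OBF4 peak and no CPP2 or THX20 peak. They held 2369 of the 76032 C3H23 peaks (3.12%) and 2261 of the 51187 OBF4 peaks (4.42%). They made up 11.3% of the 19379 regions of exactly 2 factors. In all, 2567 regions held C3H23 and OBF4, and 382 of those (14.9%) also held CPP2 or THX20 and were set aside. The positions of the peaks chose the regions, so the presence of both factors is not a finding. At the limit of the rule, 181 neighbouring C3H23 and OBF4 summits lay in the last 20 bp inside it, up to 200 bp apart, and 176 in the next 20 bp beyond it, up to 220 bp apart. The inner pairs had median signal percentiles of 61.7 for C3H23 and 44.7 for OBF4, and the outer pairs 59.8 and 37.2.

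The name of C3H23 places it among CCCH zinc finger proteins, whose fingers hold zinc through cysteines and a histidine and whose members include RNA-binding proteins as well as transcriptional regulators. OBF4 is named as an ocs-element binding factor, a group of plant bZIP proteins. Proteins of the bZIP class bind DNA as dimers, with a basic region that contacts the DNA and a leucine zipper that joins the partners, and in plants they often recognise elements with an ACGT core. Members of the ocs-element group are known from defence and stress responses and, in maize, from binding to promoters that carry ocs-like elements. CPP2 (a cysteine-rich CPP protein by its name) and THX20 (a trihelix protein by its name) served here to leave regions out.

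Most of the regions had the simplest make-up. In 1945 of 2185 (89.0%, 95% Wilson interval 87.6 to 90.3%) there was 1 C3H23 and 1 OBF4 peak, while 221 held 3 peaks, 18 held 4 and 1 held 5. More than 1 C3H23 peak was present in 177 regions (8.10%, 7.03 to 9.32%), against 2061 of the 57554 regions of C3H23 alone (3.58%, 3.43 to 3.74%). More than 1 OBF4 peak was present in 73 regions (3.34%, 2.67 to 4.18%), against 1153 of the 45744 regions of OBF4 alone (2.52%, 2.38 to 2.67%). A region with a partner peak can be chained further than one without, so these pairs of shares are given side by side and were not tested. Since every deposited peak has the same width, region length follows from the summit positions. The longest region had 656 bp and the median was 277 bp, and the regions covered 644 kb in all.

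Strength was read from the authors' signal, given for each peak without a stated scale and used here within a list only. Each peak was given its percentile in its own list, with 100 at the strong end, and each region was represented by its strongest peak of each factor. C3H23 peaks in the regions were stronger than the list at large, whereas OBF4 peaks were weaker. The best C3H23 peak had a median signal of 45, with quartiles of 31.1 and 71, against 36 (27 and 55.8) over the whole C3H23 list. The best OBF4 peak had a median signal of 27, with quartiles of 22.2 and 34, against 30.8 (24 and 43) over the whole OBF4 list. The signals of C3H23 ran from 17.6 to 572 and those of OBF4 from 15.2 to 924.6, so both factors covered almost the whole range of their lists. As percentiles, the median was 64.4 for C3H23 (95% order-statistic interval 63.1 to 66.8) and 37.2 for OBF4 (33.2 to 37.2), where ties in the signal make interval bounds coincide with the median. Regions of C3H23 alone had a median percentile of 49.6 over their C3H23 peaks, and regions of OBF4 alone one of 51.2 over their OBF4 peaks. The deposited −log10 p-value ran the same way, with a median of 8.93 for the best C3H23 peak of a region against 6.91 over the list, and 4.69 for the best OBF4 peak against 5.38.

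The opposite slopes held across the lists. In the weakest 10% of C3H23 peaks by signal, 136 of 7598 (1.79%, 1.52 to 2.11%) lay in the regions, and this share was 2.69% in the 5th class and 5.05% (4.58 to 5.57%) in the strongest 10%, with 384 of 7598 peaks. For OBF4 the share was 7.52% (6.82 to 8.28%) in the weakest 10%, with 376 of 5003 peaks, 4.72% in the 5th class and 1.99% (1.64 to 2.42%) in the strongest 10%, with 101 of 5064 peaks. A C3H23 peak of the strongest class therefore lay in the regions 2.82 times as often as one of the weakest class. For an OBF4 peak this was 0.265 times as often. Counted from the side of the regions, 16.2% of their C3H23 peaks (14.8 to 17.7%) came from the strongest 10% of that list, which by construction holds 9.99% of all C3H23 peaks. Of their OBF4 peaks, 4.47% (3.69 to 5.40%) came from the strongest 10% of that list, which holds 9.89% of all OBF4 peaks.

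**Figure D1:**
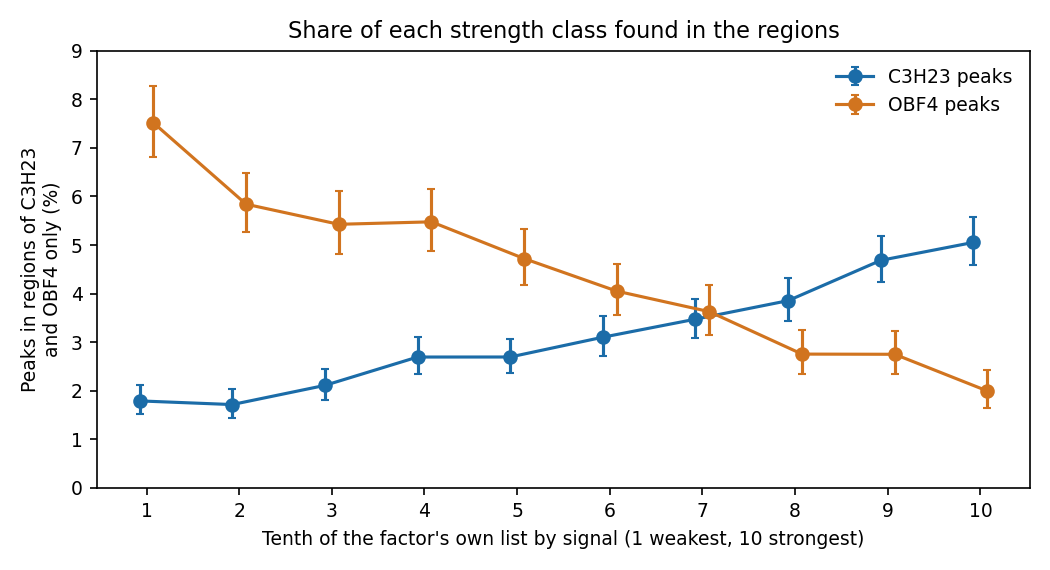
Share of the peaks of each list that lay in regions of C3H23 and OBF4 only, by 10 classes of signal within the list (x axis, weakest to strongest; y axis in percent). Points are C3H23 (blue) and OBF4 (orange) with 95% Wilson intervals; the share of C3H23 peaks is 1.79% in the weakest and 5.05% in the strongest class, that of OBF4 peaks 7.52% and 1.99%.

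Within a region the strengths of the 2 peaks were nearly unrelated. The Spearman correlation of the C3H23 and OBF4 percentiles over the 2185 regions was 0.058 (Pearson 0.066); the points share libraries and neighbouring DNA, and the value is a description. Ranked by −log10 p it was -0.017, and in the stronger 50% of each list by signal -0.072, so its sign was not stable. It was 0.096 over the 913 regions with summits under 50 bp apart and 0.012 over the 733 regions with summits 100 bp or more apart. C3H23 had the higher percentile in 1537 regions (70.3%, 68.4 to 72.2%). The most frequent combination was a C3H23 peak above and an OBF4 peak at or below the middle of its list, in 919 regions (42.1%). Both were above the middle in 499 (22.8%), both at or below it in 509 (23.3%), and C3H23 was at or below and OBF4 above it in 258 (11.8%). Both best peaks belonged to the strongest 10% of their lists in 19 regions (0.870%).

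The 10 regions with the highest mean percentile lay on 9 chromosomes. The first was on chromosome 3 from 146038565 to 146038830, with a signal of 174 for C3H23 and 161 for OBF4 (percentiles 99.2 and 98.9) and summits 65 bp apart. It was followed by chromosome 5 from 44401439 to 44401766, with signals of 168 for C3H23 and 123 for OBF4. Ranking by the mean percentile selects peaks that are strong in both lists at once.

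Chromosome 1 held 2 of the 10, separated by 10.5 kb: the region from 162637363 to 162637688 had signals of 143.2 for C3H23 and 155.1 for OBF4, and that from 162626637 to 162626909 had 102 for C3H23 and 101 for OBF4. On chromosome 7 from 4649023 to 4649269 the signals were 115.5 for C3H23 and 134.8 for OBF4, and on chromosome 10 from 27367361 to 27367668 they were 110 and 146. On chromosome 2 from 234105319 to 234105548 they were 107.1 for C3H23 and 152.7 for OBF4, and on chromosome 9 from 132484008 to 132484365 they were 117 and 108.5. Each of these regions was near the top of both lists, which the ranking selects for. The remaining regions lay on chromosome 4 from 29802737 to 29803059 (158.7 for C3H23 and 74 for OBF4) and on chromosome 8 from 118697435 to 118697647 (130 and 76). The lowest percentiles among the 10 were 93.7 for C3H23 and 93.0 for OBF4. Summit distances among the 10 ran from 12 to 127 bp.

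The 3 regions with the largest contrast between the partners were named in each direction, so both directions appear by this choice. The largest contrasts of all had a strong C3H23 and a weak OBF4 peak. On chromosome 6 from 44140963 to 44141248 the best C3H23 peak had a signal of 201.2 (percentile 99.6) and the OBF4 peak one of 16 (0.193). On chromosome 3, the region from 117770022 to 117770332 had 194.3 for C3H23 and 17 for OBF4, and that from 187246956 to 187247235 had 156.2 and 16.8. Here a C3H23 peak near the top of its list stood beside an OBF4 peak close to the lowest deposited value.

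The reverse was seen on chromosome 2 from 140100337 to 140100657, with a signal of 23.2 for C3H23 (percentile 12.7) and 138.5 for the best OBF4 peak (98.4). It was also seen on chromosome 3 from 18413433 to 18413708 (22.9 for C3H23 and 88 for OBF4) and on chromosome 6 from 104044781 to 104045277 (24.2 and 194.1). The strongest single peaks of the set fell under neither extreme. The strongest C3H23 peak in the regions, on chromosome 4 from 236068414 to 236068614 with a signal of 572, had its OBF4 partner 51 bp away with a signal of 27. The strongest OBF4 peak of the whole list, on chromosome 3 from 88772195 to 88772395 with a signal of 924.6, entered a region through a second OBF4 peak of signal 178.4: its own summit was 323 bp from the C3H23 summit, and that of the second peak 179 bp. In 44 regions (2.01%) the best peaks were over 200 bp apart in this way.

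Among the regions with the most peaks, the one with 5 lay on chromosome 8 from 75456907 to 75457425 and held 3 C3H23 and 2 OBF4 peaks, with best signals of 159.2 for C3H23 and 25.9 for OBF4. Of the regions with 4 peaks, those with the highest mean percentiles were on chromosomes 4, 7, 3 and 9. The region on chromosome 4 from 138936470 to 138936976 held 1 C3H23 peak (75) and 3 OBF4 peaks (best 163.6). That on chromosome 3 from 69492676 to 69493284 likewise held 1 C3H23 peak (48) and 3 OBF4 peaks (best 348.4). Those on chromosome 7 from 117290124 to 117290559 and on chromosome 9 from 93844616 to 93845099 held 2 peaks of each factor, with best signals of 115.7 for C3H23 and 41.4 for OBF4 on chromosome 7 and 57.3 and 64.6 on chromosome 9.

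The distance between the partners was described next, taking the closest C3H23 and OBF4 summits of each region. The median distance was 63 bp (order-statistic interval 60 to 68), with quartiles of 27 and 121 bp. The summits were under 50 bp apart in 913 regions (41.8%, 39.7 to 43.9%) and fell on the same base in 5. Per bp of distance there were 19.3 regions from 0 to 9 bp, 21.7 from 10 to 19 bp, 17.4 from 20 to 29 bp, 16.4 from 30 to 49 bp, 11.8 from 50 to 74 bp, 9.72 from 75 to 99 bp, 7.74 from 100 to 149 bp and 6.78 from 150 to 200 bp. The number per bp under 50 bp was thus 2.69 times that from 150 to 200 bp (95% counting interval 2.38 to 3.05). Taking the closest pair favours short distances where a region holds several peaks. Among the 1945 regions with 1 peak of each factor the ratio was 2.63 (2.31 to 2.99). Over all C3H23 and OBF4 summit pairs at most 200 bp apart, also those near other factors, it was lower, at 2.03 (1.83 to 2.26).

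Beyond the limit of the rule the excess continued at a lower level. Over all C3H23 and OBF4 summit pairs, including those in regions with other factors, there were 20.5 pairs per bp under 50 bp. This density was 13.1 between 50 and 100 bp, 10.1 between 150 and 200 bp and 10.1 between 200 and 300 bp, each class without its upper bound. It was 9.11 between 300 and 500 bp, 5.48 between 500 and 1000 bp, 6.41 between 1000 and 2000 bp and 4.25 between 5000 and 10000 bp. Pairs were therefore 4.82 times as dense under 50 bp as between 5000 and 10000 bp, and 2.37 times as dense between 150 and 200 bp as in that farthest class.

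Single distances stood out above this slope. A distance from 1 to 200 bp was called preferred when at least 20 regions had it and this number was over 2 times, and over 4 Poisson standard deviations, above the mean of up to 20 distances around it. Of the 200 distances, 5 (2.50%) met these criteria: 4, 12, 23, 46 and 186 bp. Together they held 236 regions (10.8%, 9.57 to 12.2%). The most frequent was 12 bp, with 67 regions against a mean of 17.6 around it, followed by 46 bp with 58 against 14.2, 4 bp with 48 against 20.8, 23 bp with 42 against 14.4 and 186 bp with 21 against 6.7. The peaks in the count were 1 bp wide or nearly so: 11 bp had 32 regions and 13 bp had 8, while 45 bp had 12 and 47 bp had 22. In the stronger 50% of each list by signal, which left 533 regions, no distance reached the 20 regions that the call needs: 12 bp had 19, 23 bp and 46 bp had 18 each, 186 bp had 12 and 4 bp had 7. At a chaining distance of 300 bp 186 bp had 18 regions and was not called. Leaving out the 5 distances, the number per bp under 50 bp was still 2.33 times (2.05 to 2.66) that from 150 to 200 bp.

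**Figure D2:**
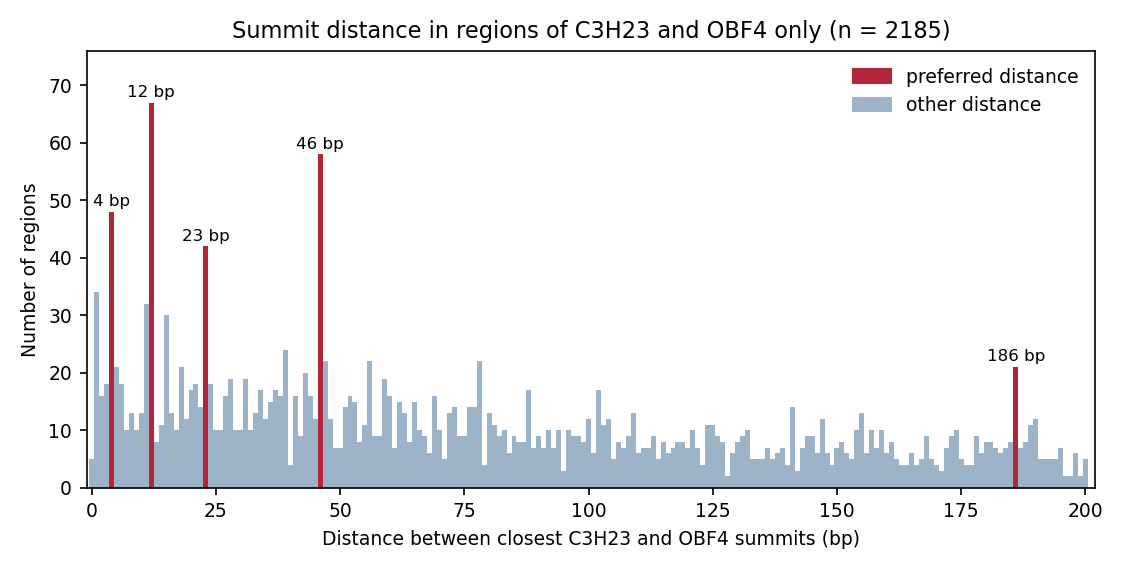
Number of regions (y axis) at each distance between the closest C3H23 and OBF4 summits (x axis, bp) for the 2185 regions; red bars are the 5 preferred distances. The count falls from short to long distances, and 12 bp (67 regions) and 46 bp (58 regions) are the highest bars.

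The regions at preferred distances differed in strength from class to class. At 12 bp the C3H23 signals ran from 21.6 to 130 with a median of 52, and the OBF4 signals from 16 to 76 with a median of 26. In percentiles these medians were 71.9 for C3H23 (66.8 to 76.1) and 33.2 for OBF4 (27.0 to 46.4). The 353 regions at most 10 bp nearer or farther had 68.9 and 33.2. They include the 48 regions at 4 bp, where C3H23 was weaker. From 10 to 19 bp without preferred distances the medians were 81.0 for C3H23 (74.2 to 83.8) and 33.2 for OBF4. For C3H23 at 12 bp the comparison thus depends on the regions compared. At 23 bp the median signals were 50.5 for C3H23 and 33.4 for OBF4. There the OBF4 percentile was 58.0 (44.7 to 65.0), against 33.2 in the distances around it, and the C3H23 percentile 70.5 against 74.9.

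At 46 bp the C3H23 peaks were weaker than in the distances around it, with a median percentile of 50.5 (40.2 to 66.8) against 67.9, while OBF4 stood at 44.7 (37.2 to 51.2) against 30.6. At 4 bp the C3H23 percentile was 45.2 (32.9 to 63.1) against 65.7 around it, with a median signal of 34, and the OBF4 percentile was 39.1 (26.0 to 62.7) against 38.0. The 276 regions around 4 bp include the 67 regions at 12 bp, where C3H23 was stronger. From 0 to 9 bp without preferred distances the C3H23 median was 58.6. The 21 regions at 186 bp had medians of 67.9 for C3H23 (50.6 to 76.1) and 58.0 for OBF4 (30.7 to 83.5), so their intervals were wide. The intervals for OBF4 at 23 and 46 bp and for C3H23 at 4 and 46 bp lay above or below the value around them. These cases were picked from all preferred distances and both factors, and the values around them were given no interval. With 1 library per factor these differences were not tested. For C3H23 at 4 bp the position of the interval depends on the regions compared, since it held the 58.6 of the 0 to 9 bp class.

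Regions of each preferred distance were spread over the genome. Those at 4, 12, 23 and 46 bp lay on all 10 chromosomes and those at 186 bp on 8, with at most 14 of 67 regions on any single chromosome (12 bp, chromosome 4). C3H23 had the higher coordinate in 42 of the 67 regions at 12 bp (62.7%, 50.7 to 73.3%) and in 23 of the 58 at 46 bp (39.7%, 28.1 to 52.5%). The shares at the other 3 distances were 62.5% at 4 bp, 40.5% at 23 bp and 38.1% at 186 bp, and over all regions 51.3% (49.2 to 53.4%) of those with a nonzero distance. The strand of the DNA is not given in the lists, so the order along the chromosome carries no direction of an element. With every region of a preferred distance turned so that C3H23 came after OBF4, further summits within 3000 bp recurred at the same position in at most 3 regions (OBF4 summits near the 4 bp pairs). For C3H23, CPP2 and THX20 summits no position recurred at any of the 5 distances.

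The strongest regions at each preferred distance were as follows. At 4 bp, all 3 lay on chromosome 7: from 147153639 to 147153843 with signals of 48 for C3H23 and 282.8 for OBF4, from 66058302 to 66058506 with 82.5 and 45.8, and from 48069657 to 48069917 with 44 and 164.5. At 12 bp, the leading region was that on chromosome 8 named above. It was followed by chromosome 4 from 148338251 to 148338463 (69 for C3H23 and 72.9 for OBF4) and chromosome 9 from 114300757 to 114300969 (78 and 61). In these 2 regions the partners had similar percentiles, 83.4 and 92.7 on chromosome 4 and 87.3 and 88.7 on chromosome 9.

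At 23 bp the leading regions were on chromosome 9 from 7913307 to 7913672 (88 for C3H23 and 71.2 for OBF4), on chromosome 4 from 161029517 to 161029740 (95 and 43), and the region of 4 peaks on chromosome 9 named above. At 46 bp they were the region on chromosome 7 from 4649023 named above, chromosome 4 from 50211677 to 50211923 (121 for C3H23 and 48 for OBF4) and chromosome 2 from 127139829 to 127140227 (65 and 62.7). At 186 bp they were on chromosome 9 from 11996721 to 11997107 (98 for C3H23 and 85 for OBF4), on chromosome 10 from 71573699 to 71574085 (65 and 103.3) and on chromosome 4 from 282974 to 283360 (75 and 44.5). Of the 15 regions named for the 5 distances, 4 held further peaks and the others a single peak of either factor.

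C3H23 strength varied with the distance and OBF4 strength did so less. The median C3H23 percentile was 55.2 (49.6 to 61.7) from 0 to 9 bp, 76.1 (71.9 to 80.8) from 10 to 19 bp, 72.2 from 20 to 29 bp, 67.9 from 30 to 49 bp, 67.1 from 50 to 74 bp, 63.1 from 75 to 99 bp, 61.7 from 100 to 149 bp and 58.6 (53.4 to 61.7) from 150 to 200 bp. C3H23 peaks were thus strongest when OBF4 lay 10 to 19 bp away. They were less strong at longer distances and when the summits nearly coincided, with medians still above the middle of the list. Without the 5 preferred distances the value was 58.6 from 0 to 9 bp and 81.0 from 10 to 19 bp, so the step between these classes was as large without them. The OBF4 median stayed between 28.9 (75 to 99 bp) and 44.7 (20 to 29 bp), with no steady order. Over all 2185 regions the Spearman correlation of distance with percentile was -0.072 for C3H23 and 0.021 for OBF4. From 10 bp on, which leaves out the class from 0 to 9 bp, it was -0.128 and 0.029 over 1992 regions.

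**Figure D3:**
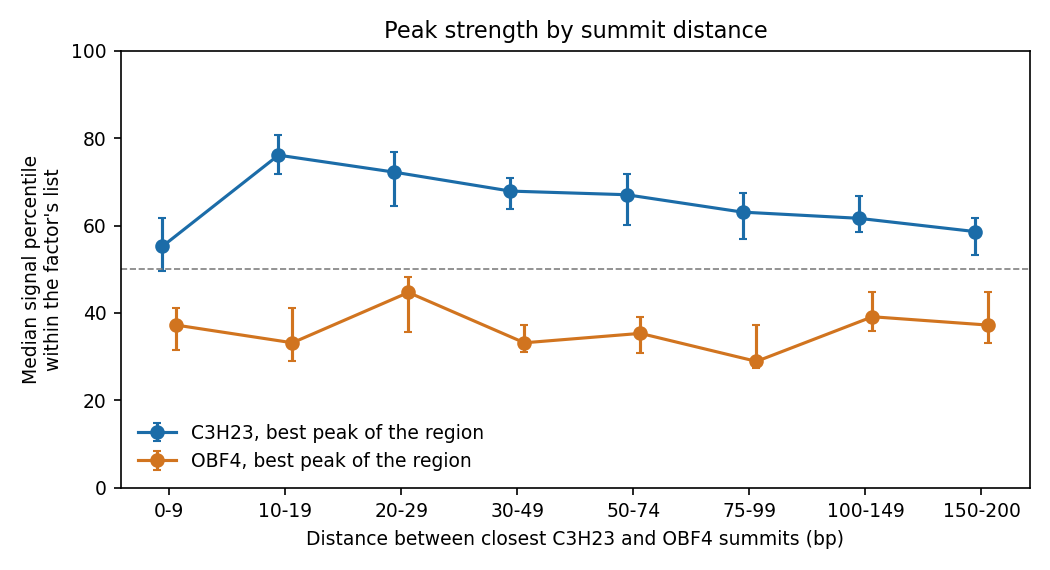
Median signal percentile within the factor's own list (y axis) of the best C3H23 (blue) and best OBF4 (orange) peak of the regions, in classes of the distance between the closest summits (x axis, bp), with 95% order-statistic intervals. The C3H23 medians lie above the middle of the list (dashed line) and are highest, at 76.1, from 10 to 19 bp; the OBF4 medians lie below it in all 8 classes.

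Other peaks of the series stood close by in a minority of regions. Within 1000 bp of a region's ends, a CPP2 or THX20 summit was found at 599 of 2185 regions (27.4%, 25.6 to 29.3%), against 31.7% (31.3 to 32.0%) of regions of C3H23 alone and 15.2% (14.9 to 15.6%) of regions of OBF4 alone. For CPP2 the share was 19.3% (17.7 to 21.0%), against 20.9% for C3H23 alone and 7.57% for OBF4 alone. For THX20 it was 10.7% (9.44 to 12.03%), against 15.1% and 8.49%. The surroundings of the regions were therefore closer to those of C3H23 sites than to those of OBF4 sites in CPP2 and lay between them in THX20. Another C3H23 summit stood within 1000 bp outside 22.4% of the regions (20.7 to 24.2%), against 24.8% (24.4 to 25.1%) of regions of C3H23 alone. Another OBF4 summit did so at 10.8% (9.57 to 12.2%), against 8.70% (8.45 to 8.96%) of regions of OBF4 alone.

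Along the genome, 2151 of the regions lay on the 10 chromosomes, 1.02 per Mb. Chromosome 7 was the densest, with 217 regions or 1.19 per Mb (1.04 to 1.36), and chromosome 8 the sparsest, with 154 regions or 0.850 per Mb (0.721 to 0.996). Their ratio was 1.40 (1.14 to 1.72), and it was picked as the extreme of 10 chromosomes. Chromosome 1 followed with 0.905 per Mb (0.802 to 1.02) and chromosome 9 with 0.920 (0.777 to 1.08). The others lay between 1.01 on chromosome 3 and 1.12 on chromosome 4, with overlapping intervals. The lists themselves varied less, by 1.13 times between the densest and sparsest chromosome for C3H23 and for OBF4. Of the OBF4 peaks, 4.73% (4.16 to 5.37%) lay in the regions on chromosome 7, 4.84% (4.33 to 5.41%) on chromosome 4 and 3.69% (3.17 to 4.29%) on chromosome 8. The median C3H23 percentile of the regions ran from 58.6 on chromosome 8 to 71.0 on chromosome 6, the OBF4 median from 33.2 to 38.9, and the share of regions with summits under 50 bp apart from 38.7 to 43.5%. Differences in these values between chromosomes were not tested.

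As in both lists, density was higher around chromosome centres than towards the ends. There were 495 regions in the central 20% of chromosome length, 1.18 per Mb, and 367 in the outer 10% at both ends, 0.871 per Mb. The ratio was 1.35 (1.18 to 1.54), against 1.41 (1.37 to 1.44) for all C3H23 peaks and 1.36 (1.32 to 1.397) for all OBF4 peaks. It was above 1 on 8 of 10 chromosomes and below 1 on chromosome 3 (0.962, from 50 central and 52 outer regions) and chromosome 4 (0.839, from 47 and 56). In 10 equal parts of the chromosomes, the share of C3H23 peaks found in the regions ran from 2.81 to 3.38% and that of OBF4 peaks from 4.04 to 4.79%, and all intervals of a factor overlapped. Both shares were lowest from 30 to 40% of the length. The highest was from 60 to 70% for C3H23 and from 50 to 60% for OBF4. Overlap of intervals is not a test, and a difference between the regions and their lists along this profile was not tested.

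**Figure D4:**
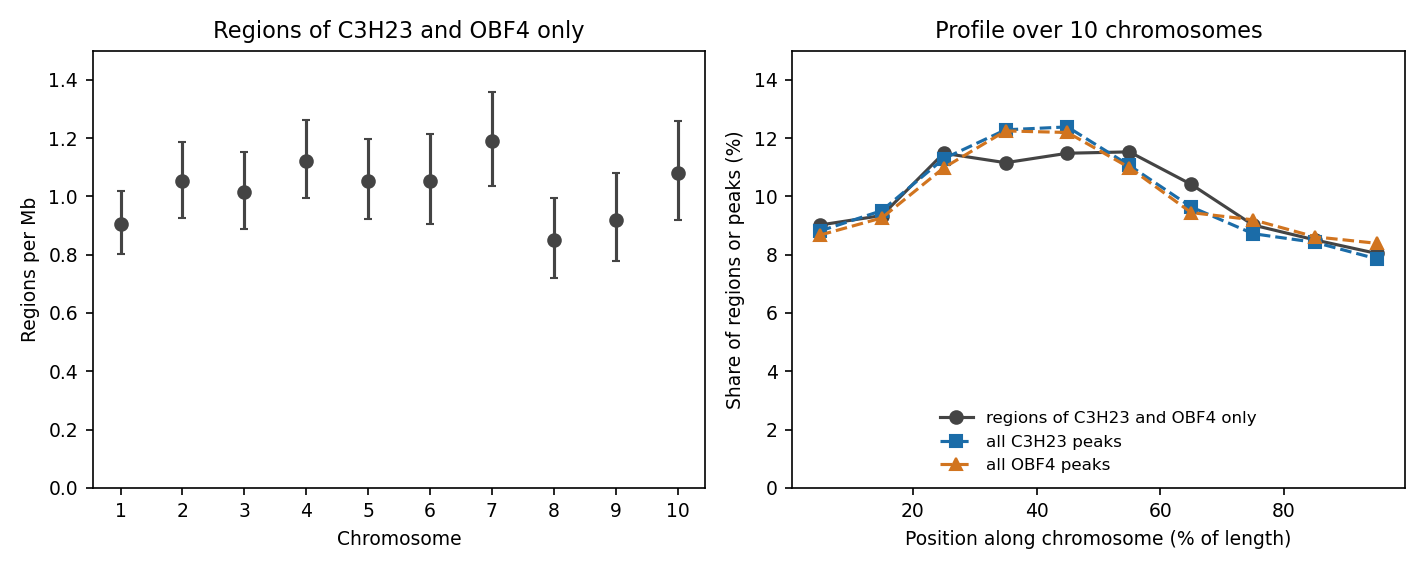
Left, regions of C3H23 and OBF4 only per Mb on each of the 10 chromosomes with 95% Poisson intervals; chromosome 7 has 1.19 and chromosome 8 has 0.850 per Mb. Right, share of the regions (grey) and of all C3H23 (blue) and OBF4 (orange) peaks in each 10% of chromosome length, summed over chromosomes; the 3 curves are highest between 20 and 60% of the length.

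On a finer scale the regions were spread thinly. Of 2101 bins of 1 Mb, 779 held none, 724 held 1, 418 held 2 and 180 held 3 or more. The fullest held 6 regions each, from 66000001 to 67000000 on chromosome 7, from 25000001 to 26000000 on chromosome 8 and from 35000001 to 36000000 on chromosome 10. These bins had 64, 48 and 40 C3H23 peaks and 29, 27 and 25 OBF4 peaks. The median gap between neighbouring regions was 665 kb and the longest 6.85 Mb, while 75 of 2141 gaps were under 20 kb and 13 were under 1 kb.

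The pair was finally set beside the other pairs of factors, each taken by the same rule. Summits were under 50 bp apart in 41.8% of the regions of C3H23 and OBF4, against 27.4% (26.4 to 28.4%) of 7160 regions of C3H23 and CPP2, 25.3% (24.1 to 26.5%) of 5018 regions of C3H23 and THX20, and 27.0% (24.1 to 30.0%) of 867 regions of OBF4 and THX20. The share was 33.7% (32.1 to 35.2%) in 3541 regions of CPP2 and THX20 and 19.1% (16.2 to 22.4%) in 608 regions of OBF4 and CPP2. The number per bp under 50 bp over that from 150 to 200 bp was 2.69 for C3H23 and OBF4, 1.21 for C3H23 and CPP2, 1.20 for C3H23 and THX20, 1.61 for OBF4 and THX20, 1.87 for CPP2 and THX20 and 0.497 for OBF4 and CPP2. With 1 library per factor these differences were not tested.

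In strength, C3H23 peaks had a median percentile of 64.4 beside OBF4, against 40.2 (40.2 to 41.7) beside CPP2 and 53.4 (51.5 to 55.2) beside THX20. OBF4 peaks had one of 37.2 beside C3H23, against 44.7 (41.0 to 49.8) beside THX20 and 59.5 (52.7 to 64.1) beside CPP2. Both best peaks were in the strongest 10% of their lists in 0.870% (0.557 to 1.35%) of the regions of C3H23 and OBF4. Taken singly, the best C3H23 peak was so in 16.9% of these regions and the best OBF4 peak in 4.39%. For both peaks the share was 0.461% for C3H23 and CPP2, 1.77% for C3H23 and THX20 and 2.31% for OBF4 and THX20. It was 3.45% for OBF4 and CPP2 and 0.565% for CPP2 and THX20. Preferred distances numbered 5 for C3H23 and OBF4, 5 for C3H23 and THX20, 3 for OBF4 and THX20, 2 for C3H23 and CPP2, 1 for CPP2 and THX20 and 0 for OBF4 and CPP2. The call needs 20 regions at a distance, so small sets have fewer chances of one.

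**Figure D5:**
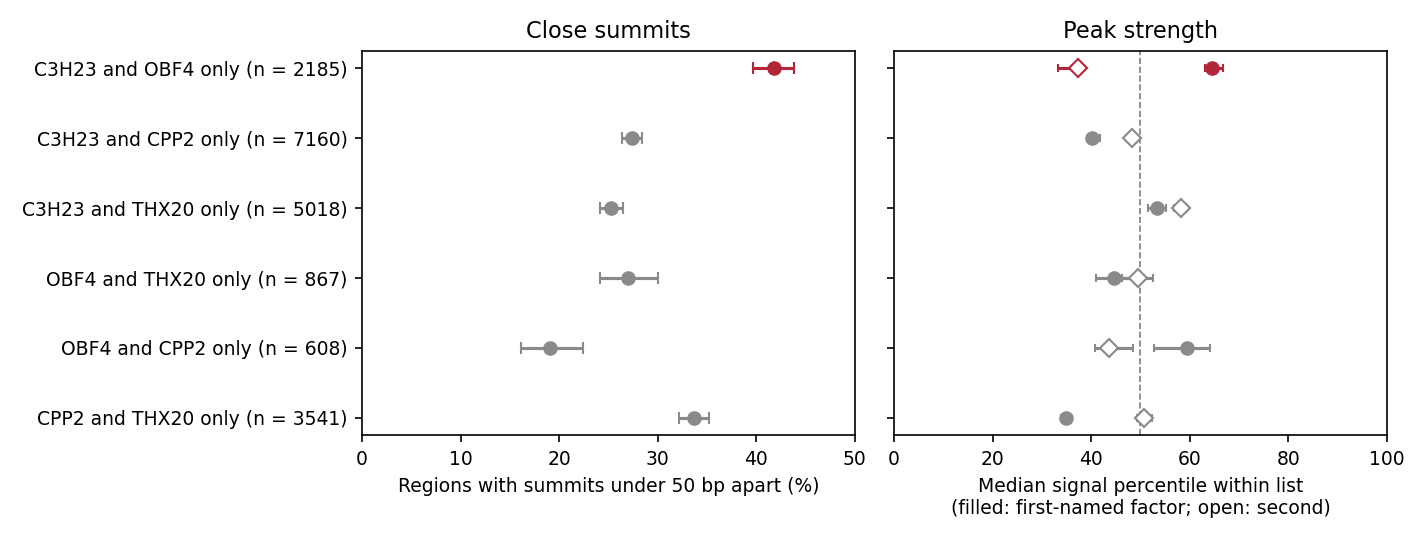
Regions of exactly 2 factors, by pair (rows, with the number of regions; C3H23 and OBF4 in red). Left, percent of regions with summits under 50 bp apart with 95% Wilson intervals, 41.8% for C3H23 and OBF4 against 19.1 to 33.7% for the others; right, median signal percentile of the best peak of the first-named (filled) and second-named (open) factor with 95% order-statistic intervals, 64.4 for C3H23 and 37.2 for OBF4 in the top row.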

How the data were processed

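DAP-seq peak lists of 4 factors, 1 library each, were used, and samples were grouped by title, although file names carry other factor names. Per the submitters' processing notes, Trimmomatic 0.39 and Bowtie2 2.4.1 were used on the reads. Which caller, control and build gave the peaks is not given in the sources used here. Each deposited list has peaks of 1 fixed width with a signal of unstated scale, a −log10 p-value and −log10 q-value (lowest q value on that scale 3) and a score, all made by the authors; the deposited score was not used. Deposited file names point to removal of blacklisted regions. Read depth is unknown, so no precision of a single peak can be given.

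Summits (start plus 100 bp) were chained at 200 bp. Percentiles used mid-ranks of the signal. Shares have Wilson, counts Poisson, medians order-statistic and ratios log-normal 95% intervals. The chaining was tested on simulated data. Chromosome length was taken up to the last peak of any list. Named regions were the 10 of highest mean percentile, the 5 with most peaks, the 3 strongest at each preferred distance, the 3 with the largest difference each way, the fullest 1 Mb bin (3 tied) and the 3 strongest on contigs; the single strongest peak of each factor was named after its value was seen. The members and lists were chosen with earlier results of these data known. Alternatives were other chaining distances, the stronger 50% of lists, ranking by −log10 p, regions of 1 peak each, all summit pairs, other chromosome parts and other flanks. Genes, motifs and sequences were not analysed: no genome of the lists' build was used, and the gene table at hand (Zm-B73-REFERENCE-NAM-5.0) differs in coordinates: on chromosome 2 peaks ran 0.935 Mb past its last gene. Positions are counted from 1. Python 3.11.15, numpy 2.4.6, pandas 2.3.3, scipy 1.17.1 and matplotlib 3.10.9 were used.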

Additional observations from a re-analysis of the deposited data

Results flagged for a closer look

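The profile along chromosomes did not use contigs not placed on a chromosome, which held 805 C3H23 and 609 OBF4 peaks. A control library for comparison was not used here. With peaks of both factors there, passing the limit of 3 that a count of 0 allows is no finding. In all, 34 regions of C3H23 and OBF4 only lay on 23 of these contigs, the most, 6, on contig 150. Their median percentiles were 66.3 for C3H23 and 44.7 for OBF4, against 64.4 and 37.2 on the chromosomes, and the summits were under 50 bp apart in 16 of 34 (47.1%, 31.5 to 63.3%). Of the contig peaks, 4.35% of C3H23 (3.14 to 5.99%) and 5.75% of OBF4 (4.16 to 7.89%) lay in the regions, against 3.10% and 4.40% on the chromosomes. The regions of highest mean percentile were on contig 18 from 33805 to 34245 (signals of 41 for C3H23 and 129.3 for OBF4), contig 52 from 180614 to 180842 (49.7 and 50) and contig 174 from 52948 to 53149 (129 and 30).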

How the results depend on the processing

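No paired analysis was possible because there was 1 library per factor, and no replicate could be left out either. In the stronger 50% of each list by signal, with percentiles taken again within the shortened lists, there were 533 regions, with median percentiles of 60.1 for C3H23 and 39.1 for OBF4, a rank correlation of -0.072, a number per bp under 50 bp 2.05 times that from 150 to 200 bp, a central over outer ratio of 1.82 (against 1.63 for the shortened C3H23 and 1.49 for the shortened OBF4 list) and a CPP2 or THX20 summit within 1000 bp of 12.6% of regions. In the stronger 50% by −log10 p the values were 541 regions, 59.96 for C3H23, a correlation of 0.105, 37.9% of regions with summits under 50 bp apart, 1.88 times for the close range, 5.14 times the surrounding mean at 12 bp, 1.86 for central over outer and 12.2% for the flanks. All 4 lists are shorter by construction in these settings. The cause of the shifts, including the smaller numbers of regions and flanking peaks, was not tested. Ranking by −log10 p gave 62.8 for C3H23, 38.5 for OBF4 and a correlation of -0.017. Chaining at 100 bp gave 61.7% of regions with summits under 50 bp apart and 32.0% with a flanking summit, and no close-range ratio, since longer distances are left out. Chaining at 300 bp gave 32.1%, 21.4% and an OBF4 percentile of 39.7. Regions of 1 peak each gave 62.3 for C3H23. All summit pairs gave 37.3% under 50 bp apart and 2.03 times for the close range, and a flank of 500 bp gave 14.2%. Under every alternative that was run C3H23 stayed above and OBF4 below the middle of its list, the close range stayed denser and the centre stayed denser than the ends. The distance of 12 bp was the most frequent when chaining at 100 and 300 bp and in the stronger 50% by signal, and was level with 23 bp, at 19 regions each, in the stronger 50% by −log10 p. The densest over the sparsest chromosome depended on the setting in which chromosomes were named: chromosomes 4 and 8 at 100 bp, and 7 and 1 in the stronger 50% by signal. Unknown read depth limits every count.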

Other observations

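Over all C3H23 and OBF4 summit pairs up to 1000 bp apart, whatever other factor stood near, further distances beyond the 200 bp of the rule met the same criteria of a preferred distance. A distance of 542 bp was found in 44 pairs, while neighbouring distances averaged 8.15 pairs, and one of 545 bp in 31 pairs (neighbours 8.65). The count at 542 bp was 5.40 times that mean. The largest such value among called distances under 200 bp was lower, 3.43 times at 12 bp. For 248 bp there were 31 pairs (neighbours 10.9) and for 467 bp 24 pairs (neighbours 8.4). Below 200 bp, 141 bp was added to the 5 distances of the regions, with 25 pairs against 9.75.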
